A study of Mus musculus with 10 samples.

Results

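The ADAM, ADAMTS, MMP and TIMP genes are the metalloproteases that cut proteins at the cell surface and in the extracellular matrix, together with the inhibitors that block them. They were taken from the table as every gene whose symbol begins with Adam, Adamts, Mmp or Timp followed by a digit, which gave 53 of the 15507 genes listed. The genes were read in RNA-Seq libraries of germ cells from 5 wild type (WT) mice and 5 homozygous GRTH knock-in (KI) mice, all males aged 45 days, with 1 library per mouse. KI mice carry the human gene of GRTH, the testicular RNA helicase DDX25, with the R242H mutation, and the WT mice carry the mouse gene. The germ cells were released from the tubules with collagenase and trypsin and passed through strainers without a sort, so that spermatogonia, spermatocytes and spermatids were sequenced together. The comparison asked how the mRNA of these genes differs between KI and WT, and whether the ADAMs of the sperm surface and the proteases of the somatic matrix do so in the same direction.

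An ADAM is anchored in the membrane and carries a metalloprotease domain followed by a disintegrin domain that can bind integrins. A large branch of the family is transcribed mainly in testis. ADAM1 and ADAM2 pair to form fertilin, and ADAM3 is needed for sperm to pass from the uterus into the oviduct and to bind the zona pellucida. These proteins are folded in the germ cell by testis chaperones such as calmegin, and most are cut to their mature form before or during passage through the epididymis. Outside the germ line, ADAM10 and ADAM17 shed receptors and ligands from the cell surface, ADAMTS proteases are secreted and cut proteoglycans and procollagens, MMPs degrade collagens and other matrix proteins, and TIMPs inhibit them.

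By these roles 20 members were testis ADAMs and 33 were on the somatic side. The testis ADAMs were 11 genes of the fertilin and ADAM3 group (Adam1a, Adam1b, Adam2, Adam3, Adam4, Adam5, Adam6a, Adam6b, Adam18, Adam24 and Adam32) and 9 other genes (Adam20, Adam21, Adam25, Adam26a, Adam26b, Adam29, Adam30, Adam34 and Adam39). Adam24 was listed with the fertilin and ADAM3 group, but its protein is closer to that of Adam25 (51.6% identical) than to those of Adam1a (34.5%) and Adam2 (31.8%). The somatic side held 10 somatic or broadly expressed ADAMs, 11 ADAMTS proteases, 8 MMPs and the 4 TIMPs. All 53 members passed the filter on low counts and were tested. Mmp9, Adam7, Adam28 and Adam33 are not analysed here.

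Values are normalized counts, that is, reads on a gene divided by the size factor of the library. The reads on genes numbered 13323024 to 16422347 per WT library and 12722086 to 15500582 per KI library, and the genotypes did not differ beyond their spread (p = 0.659 in an exact permutation test, two-sided). A count of 0 would leave up to 3 reads possible, or 2.61 to 3.62 normalized counts, a floor that takes account of counting error alone. The mouse gene Ddx25, the target of the knock-in, had 5198 to 11100 normalized counts in WT and 146, 194, 161, 2.88 and 1.84 in KI libraries 1 to 5, so that KI libraries 4 and 5 were far below KI libraries 1 to 3. Germ cell markers were abundant in every library, and markers of Leydig cells, macrophages and stromal fibroblasts were also present in every library although the labels give the cells as germ cells. Libraries numbered 1 to 3 and those numbered 4 and 5 separated on the second principal component in both genotypes, and fold changes of named members within a set are given where its direction or call differs from that of all libraries. The test was also run with the replicate number as a block, although the labels do not pair a WT mouse with a KI mouse.

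Testis ADAMs were lower in KI and members of the somatic side higher, wherever a member was called. A gene was called differentially expressed at an adjusted p under 0.05 (limma on log2 of the normalized count + 1, Benjamini-Hochberg over 15389 genes) with a fold change of at least 1.5. By this rule 9 of the 20 testis ADAMs fell, against 8.22% of all genes tested. On the somatic side 7 of 33 members rose and 0 fell, against 6.13% of all genes tested that were called higher. Of these 7, Timp1, Timp4 and Mmp25 passed the filter on low counts only through their KI libraries. For those genes the higher direction followed from the filter and is no support. The median log2 fold change was −0.46 over the testis ADAMs, 0.44 over the somatic side and 0.03 over all genes tested. At an unadjusted p under 0.05, 16 testis ADAMs were lower and 0 higher, and 14 members of the somatic side were higher and 0 lower. Of all 15389 genes tested, 5322 had an unadjusted p under 0.05 in either direction. edgeR's quasi-likelihood test and DESeq2 on the recovered reads also called 0 testis ADAMs higher and 0 somatic members lower, and at an unadjusted p under 0.05 each placed 1 testis ADAM, Adam6b, higher.

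**Figure D1:**
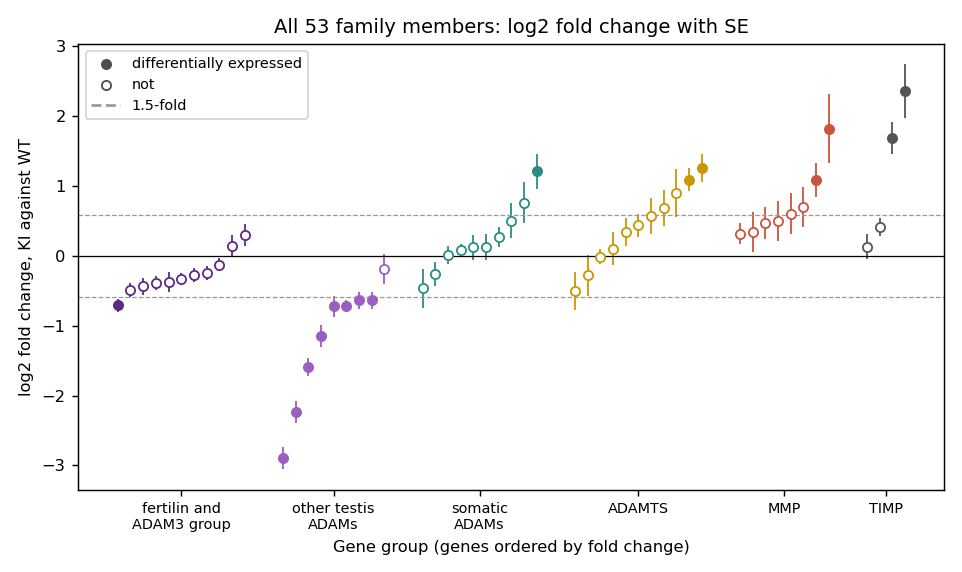
The log2 fold change of each of the 53 members (y axis, KI against WT, bars show the SE) is plotted by gene group (x axis), with filled points for differentially expressed genes and dashed lines at a fold change of 1.5. The 9 filled points of the testis ADAMs all lie below 0, and the 7 filled points of the other groups all lie above it.

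The genes of each side were also summed per library. Summed over the 20 testis ADAMs, the normalized counts were 85890 to 97590 in WT and 64770 to 74750 in KI, and the groups did not overlap. Summed over the somatic side they were 4281 to 5450 in WT and 4835 to 6375 in KI, and these ranges overlapped. Timp2 alone had a mean of 1799 in WT and 2400 in KI, where the somatic sums had means of 4674 and 5878. For all genes together the normalized counts came to 15456693 to 16736057 in WT and 12939539 to 14599434 in KI. These totals did not overlap, so a sum can be lower in KI without a lower share of all counts. As a share of all counts the testis ADAMs made up 0.560% in WT and 0.505% in KI, and the somatic side 0.0293% and 0.0434%. Scaling by library totals moved the median log2 fold change of all genes from 0.03 to 0.25, and 4 testis ADAMs were then called lower and 17 somatic members higher. Of all 15389 genes tested, 789 were then called lower and 2145 higher, against 1265 and 944 with the deposited scaling. Set against the all-gene median, that of the testis ADAMs was −0.487 with the deposited scaling and −0.485 with library totals, and that of the somatic side 0.413 and 0.409. In a bulk sample, fewer cells of a type and less RNA per cell cannot be told apart. Markers of elongating spermatids (Prm1, Prm2, Tnp1, Tnp2, Odf1 and Smcp) were lower in KI for 6 of 6 genes, with a median log2 fold change of −2.65 and a summed count of 189500 to 348200 in WT and 22700 to 51550 in KI. Round spermatid markers were called for 0 of 6 genes, with a median of −0.28 and sums of 23900 to 27090 and 18430 to 23660. Spermatocyte markers were called for 0 of 7, with a median of 0.01 and sums of 8775 to 14440 and 8669 to 12890. As shares of all counts, the elongating spermatid markers made up 1.673% in WT and 0.3085% in KI. The round spermatid markers made up 0.1602% and 0.162%, and the spermatocyte markers 0.06938% and 0.07712%. No marker of these lists was at 0 in all libraries. The part of cell composition in the fold changes of the testis ADAMs was not tested.

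The largest falls were in Adam39, Adam25 and Adam20, which lie next to each other on chromosome 8 with Adam24. In mm10 they span chr8:40752208-40756187 (Adam25), chr8:40793273-40797303 (Adam20) and chr8:40823009-40826861 (Adam39), all on the plus strand. Their proteins keep the zinc-binding site of an active metalloprotease, in which histidines hold the zinc, a glutamate takes part in catalysis and a glycine allows the turn between them. The coding stretch of this site, read from the GENCODE M21 transcripts, is shown for the trio, for Adam1a of the fertilin group and for members that have lost part or most of the site, because the members are counted by this division further on. Capitals mark the codons of the site's 5 key residues that are kept.
Adam39: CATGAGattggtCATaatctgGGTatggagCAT
Adam20: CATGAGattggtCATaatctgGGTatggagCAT
Adam25: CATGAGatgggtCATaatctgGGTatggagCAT
Adam1a: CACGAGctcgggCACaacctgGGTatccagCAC
Adam29: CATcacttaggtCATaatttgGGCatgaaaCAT
Adam3: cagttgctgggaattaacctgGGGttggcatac
Adam2: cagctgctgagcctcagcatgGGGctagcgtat
Adam5: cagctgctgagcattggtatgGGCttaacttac
Adam39 and Adam20 are identical over these 33 bases, and Adam25 differs from them by 1 base. Adam1a keeps all 5 codons, Adam29 has lost the glutamate only and keeps 4, and Adam3, Adam2 and Adam5 keep the codon for glycine alone.

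Adam39 had 1253, 1213, 1106, 967 and 990.1 normalized counts in WT libraries 1 to 5 and 200, 166, 169.9, 102 and 119.6 in KI libraries 1 to 5. Every KI library was far under the lowest WT library, with a 7.43-fold difference on the log2 scale of count + 1. The log2 fold change was −2.89 ± 0.16 (SE, n = 5 per genotype; limma, adjusted p = 2.28e-08). For Adam25 the counts were 1100, 1143, 911, 959.9 and 912 in WT and 271, 276, 199.7, 201 and 143 in KI. The groups again lay well apart, with a log2 fold change of −2.23 ± 0.16 (limma, adjusted p = 1.46e-07). Adam20 had 1750, 1786, 1453, 1256 and 1560 in WT and 607, 570.1, 566, 438 and 421 in KI. Its KI libraries were all under the lowest WT library, with a smaller log2 fold change of −1.59 ± 0.13 (limma, adjusted p = 4.49e-07). Adam24, also called testase 1, lies at chr8:40675077-40682199 in the same run of genes and had 2407 to 3135 in WT and 1549 to 2355 in KI. Its log2 fold change of −0.44 ± 0.12 passed the adjusted p (limma, 0.0196) but not the fold of 1.5, which it passed in libraries 4 and 5 alone (−0.59).

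Adam29, at chr8:55870912-55906964, had 999, 1106, 829, 995 and 937 normalized counts in WT and 590.2, 532, 469.5, 370.2 and 294 in KI. The groups did not overlap, and the log2 fold change was −1.14 ± 0.16 (limma, adjusted p = 0.000102). Within KI, libraries 4 and 5 were the lowest, and the log2 fold change came to −1.55 in that set against −0.88 in libraries 1 to 3. Adam30, at chr3:98160634-98164169, had 2298, 2256, 1923, 1914 and 2265 in WT and 1205, 1304, 1204, 1448 and 1305 in KI. All KI libraries were lower than all WT libraries, and the log2 fold change was −0.72 ± 0.09 (limma, adjusted p = 4.13e-05). Adam34 fell by a log2 fold change of −0.72 ± 0.15, from 347 to 531 in WT to 176 to 303 in KI (limma, adjusted p = 0.0025).

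Adam21 and Adam26a were called close to the fold threshold. Adam21 had 1021 to 1217 normalized counts in WT and 546 to 842 in KI, a log2 fold change of −0.64 ± 0.12 (limma, adjusted p = 0.00118). It was −0.54 without KI library 5 and −0.46 in libraries 1 to 3 alone, both under 1.5-fold. Adam26a had 1565 to 2084 in WT and 938 to 1357 in KI, a log2 fold change of −0.63 ± 0.12 (limma, adjusted p = 0.00141), and it was −0.58 without WT library 1 or KI library 4 and −0.56 without KI library 5. In libraries 1 to 3 alone it was −0.51, also under 1.5-fold. The neighbour Adam26b, at chr8:43519864-43528137, had 492, 395, 443, 471 and 329 in WT and 494, 475, 497, 279.8 and 216 in KI. These ranges overlapped, and the log2 fold change was −0.18 ± 0.21 (limma, adjusted p = 0.597). It was 0.15 in libraries 1 to 3, −0.68 in libraries 4 and 5, 0.01 without KI library 5, and 0.05 when the libraries were scaled by their totals.

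**Figure D2:**
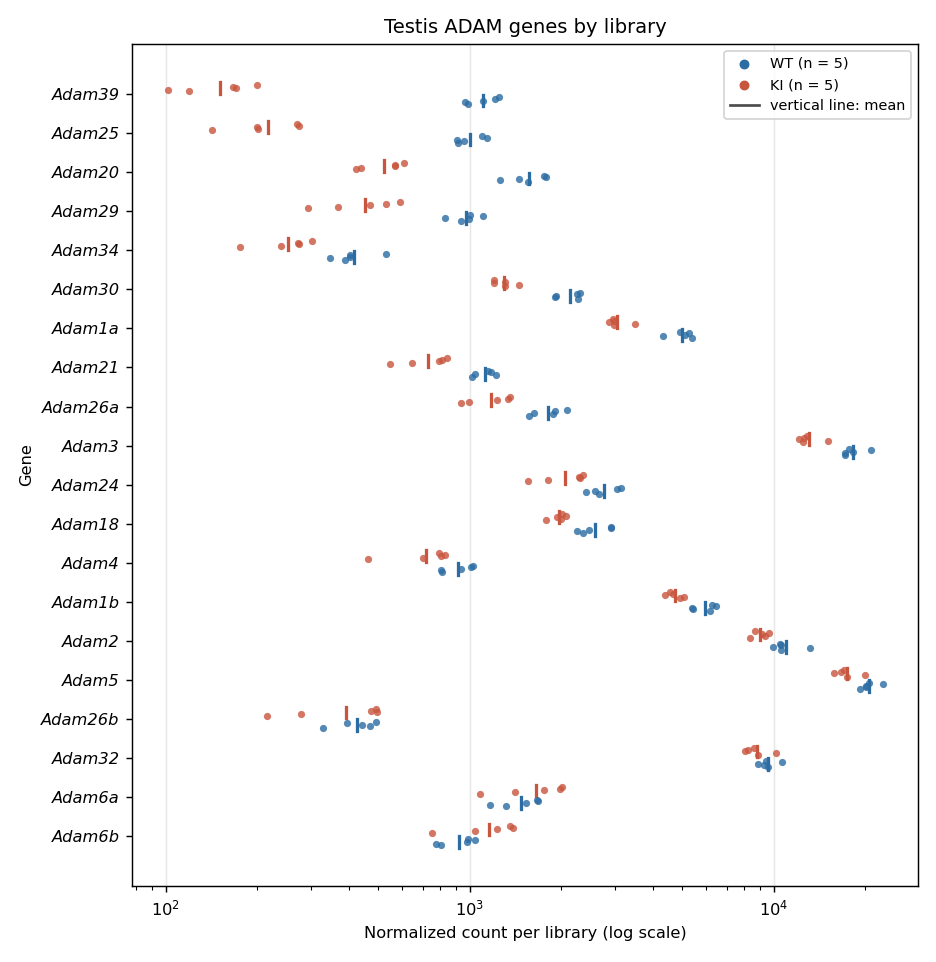
Normalized counts of the 20 testis ADAMs (x axis, log scale) are plotted by gene (y axis, ordered by fold change), with 1 point per library, WT in blue and KI in red, and a vertical line at each mean. The KI points of Adam39, Adam25 and Adam20 sit well to the left of the WT points, and those of Adam26b, Adam32, Adam6a and Adam6b overlap them.

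In the fertilin and ADAM3 group most estimates were below 0 but few passed the fold threshold. Of its 11 genes, 1 was called lower, a count near the 8.22% of all genes tested. At an adjusted p under 0.05, 5 were lower, where the share of all genes tested was 13.3%. The median log2 fold change of the group was −0.33, against −0.72 for the other 9 testis ADAMs. Of those 9 genes 8 were called lower, where the share of all genes tested was 8.22%. The difference between these groups was not tested. Over all 20 testis ADAMs, 13 passed the adjusted p in the lower direction. In 14 of the 20 every KI library was under every WT library, which was so for 10.9% of all genes tested.

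Adam1a (chr5:121518604-121521695), which encodes the alpha subunit of fertilin in germ cells, had 4896, 5249, 5103, 4308 and 5368 normalized counts in WT and 2948, 2974, 2863, 3505 and 2984 in KI. It was the only gene of the group that was called, and its KI libraries were all under its WT libraries (log2 fold change −0.71 ± 0.09; limma, adjusted p = 5.03e-05). In libraries 4 and 5 alone the log2 fold change of −0.57 was under 1.5-fold and Adam1a was not called. Its close copy Adam1b, which encodes the alpha subunit found on the sperm surface, had 5364 to 6469 in WT and 4391 to 5055 in KI, with a log2 fold change of −0.33 ± 0.09 (limma, adjusted p = 0.0144). Adam2 (chr14:66027322-66077769), the beta subunit of fertilin, had 10440, 10540, 9967, 13150 and 10520 in WT and 8645, 9613, 9139, 9354 and 8340 in KI. The ranges did not overlap, but the log2 fold change of −0.27 ± 0.10 missed the threshold (limma, adjusted p = 0.0582), and the adjusted p was 0.025 with the replicate number as a block. Adam3 (chr8:24677232-24725852), the ADAM needed for passage into the oviduct, had 17730, 20830, 18270, 17140 and 17160 in WT and 12880, 12570, 12130, 15050 and 12470 in KI. All KI libraries were lower, by a log2 fold change of −0.49 ± 0.10 (limma, adjusted p = 0.00231), which is under 1.5-fold, and it was called in libraries 1 to 3 alone (−0.59).

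Adam18, Adam5 and Adam32 adjoin Adam3 on chromosome 8. Adam18 had 2254 to 2925 normalized counts in WT and 1785 to 2080 in KI, a log2 fold change of −0.39 (limma, adjusted p = 0.00779). Adam5 had 19170 to 22800 in WT and 15720 to 19910 in KI, with a log2 fold change of −0.24 (limma, adjusted p = 0.0911). For Adam32 the counts were 8893 to 10650 and 8051 to 10190, the log2 fold change was −0.13 (limma, adjusted p = 0.379), and its sign turned to 0.10 when libraries were scaled by their totals. Adam4 had 806 to 1026 in WT and 463 to 832 in KI (log2 fold change −0.38; limma, adjusted p = 0.0795, and 0.00807 with the replicate number as a block).

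Adam6a and Adam6b had estimates above 0, as did Adam32 and Adam26b when libraries were scaled by their totals. Adam6b had 989.6, 1043, 981, 775 and 806 in WT and 1357, 1386, 1234, 1039 and 749 in KI. KI libraries 1 to 3 were above all WT libraries, KI library 5 was the lowest of all 10, and the log2 fold change of 0.30 ± 0.15 did not pass the test (limma, adjusted p = 0.18). With the replicate number as a block the adjusted p of Adam6b was 0.0201, in the higher direction and under 1.5-fold. Adam6a had 1162 to 1680 and 1085 to 2016, with a log2 fold change of 0.14 ± 0.16 (limma, adjusted p = 0.586) and −0.0022 in libraries 4 and 5.

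The genes with the highest transcript levels were not differentially expressed. Per kilobase of the longest coding transcript, the WT levels in normalized counts were highest for Adam5 (8020 ± 530, SD, n = 5) and Adam3 (6650 ± 557), followed by Adam2 (4280 ± 496) and Adam32 (3900 ± 268), the last pair lying within their spread. Adam39 (420 ± 48.7), Adam21 (385 ± 29.3), Adam25 (384 ± 41.7) and Adam4 (367 ± 42.0) lay within each other's spread in WT. In KI the levels per kilobase were 57.5 for Adam39 and 83.1 for Adam25, while Adam21 was at 250.0 and Adam4 at 287. The lowest level in WT was that of Adam34 at 161 ± 26.7, next to Adam26b at 172 ± 26.3.

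By position, 12 of the 20 testis ADAMs lie on chromosome 8, of which 6 were called lower, and 8 lie elsewhere, of which 3 were called lower, where the share over all genes tested was 8.22%. Within chromosome 8, the run of Adam18, Adam3, Adam5 and Adam32 had 0 of 4 called and a median log2 fold change of −0.32. The run of Adam24, Adam25, Adam20 and Adam39 had 3 of 4 called and a median of −1.91, and the run of Adam26b, Adam26a and Adam34 had 2 of 3 called and a median of −0.63. By zinc-binding site, 11 testis ADAMs kept all 5 key residues, of which 8 were called lower with a median of −0.71. The other 9 had lost at least 1 residue, of which 1 was called, Adam29, with a median of −0.27, a count near the 8.22% of all genes tested. These divisions overlap with each other and with transcript level, since the genes that lost the site include the most abundant ones.

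**Figure D3:**
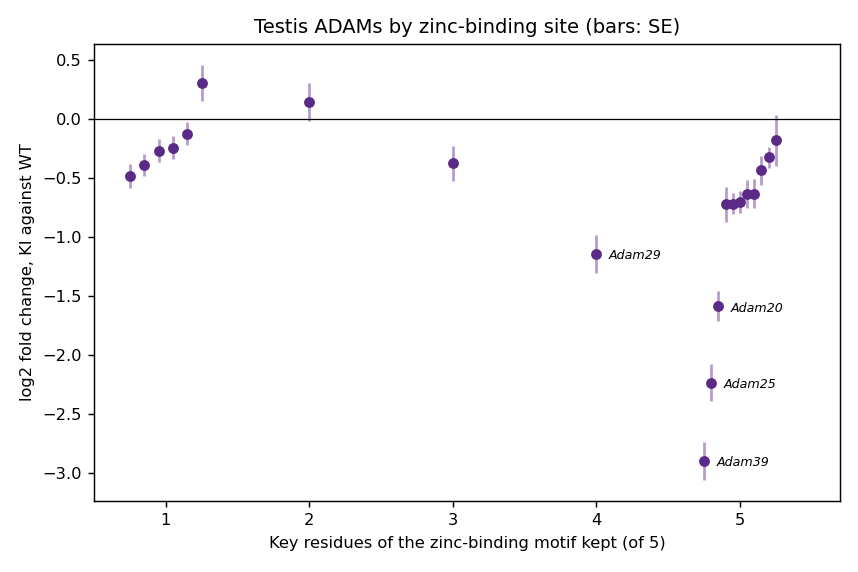
The log2 fold change of each testis ADAM (y axis, KI against WT, bars show the SE) is plotted against the number of key residues of the zinc-binding motif that its coding sequence keeps (x axis, of 5). The 11 genes that keep all 5 residues run from −2.89 to −0.18, and the 9 genes that have lost residues run from −1.14 for Adam29 to 0.30.

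Several testis ADAMs are copies of each other that share stretches of exact sequence, so that a read from such a stretch can be assigned to more than 1 of them and the split of counts within a pair is uncertain. The proteins encoded by Adam25 and Adam39 are 91.4% identical, those of Adam6a and Adam6b 89.8%, those of Adam26a and Adam26b 88.4%, those of Adam20 and Adam25 81.2%, and those of Adam1a and Adam1b 73.0%. The share of exact windows of 150 bases that a transcript has in common with its copy was highest for Adam1b with Adam1a, at 29.3%, and lowest for Adam6a and Adam6b, at 5.4%. The log2 ratio of copies within a library was compared for the 6 pairs that share any such window. The ratio of Adam20 to Adam39 was 0.49 ± 0.12 in WT and 1.81 ± 0.18 in KI (SD, n = 5; exact two-sided permutation test, p = 0.00794, the smallest this design can give, and 0.00952 adjusted over 6 pairs). Adam25 to Adam39 moved from −0.14 ± 0.10 to 0.53 ± 0.32, and Adam1a to Adam1b from −0.25 ± 0.12 to −0.63 ± 0.07, with the same exact p in both. The adjusted exact p was at most 0.0397 in the 6 pairs, the value of Adam26a to Adam26b. The ranges of that pair overlapped, at 1.87 to 2.27 in WT and 1.31 to 2.12 in KI.

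Promoter sequences were compared where they were matched. RefSeq start regions (GRCm38.p6, 250 bases before to 50 after the start) were matched for 31 of the 53 members, 10 testis ADAMs and 21 of the somatic side. Adam20 (chr8:40793023-40793322, plus strand) and Adam25 (chr8:40751958-40752257, plus strand) are 95.9% identical over 296 aligned bases, and Adamts2 (chr11:50601835-50602134, plus strand) is shown as a matrix protease that rose. Capitals mark CCGCCC on either strand, a GC box core, and TATAAA on either strand.
Adam20: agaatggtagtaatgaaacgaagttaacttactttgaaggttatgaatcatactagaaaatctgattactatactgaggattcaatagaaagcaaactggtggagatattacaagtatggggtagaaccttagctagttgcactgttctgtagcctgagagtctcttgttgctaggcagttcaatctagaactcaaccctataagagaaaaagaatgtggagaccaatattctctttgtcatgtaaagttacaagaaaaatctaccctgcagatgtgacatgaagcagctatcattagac
Adam25: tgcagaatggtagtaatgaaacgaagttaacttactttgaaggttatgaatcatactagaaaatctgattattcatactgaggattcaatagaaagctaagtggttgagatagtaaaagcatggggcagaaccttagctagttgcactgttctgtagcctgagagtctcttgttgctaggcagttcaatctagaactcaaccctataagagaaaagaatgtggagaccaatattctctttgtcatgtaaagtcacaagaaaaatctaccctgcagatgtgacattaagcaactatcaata
Adamts2: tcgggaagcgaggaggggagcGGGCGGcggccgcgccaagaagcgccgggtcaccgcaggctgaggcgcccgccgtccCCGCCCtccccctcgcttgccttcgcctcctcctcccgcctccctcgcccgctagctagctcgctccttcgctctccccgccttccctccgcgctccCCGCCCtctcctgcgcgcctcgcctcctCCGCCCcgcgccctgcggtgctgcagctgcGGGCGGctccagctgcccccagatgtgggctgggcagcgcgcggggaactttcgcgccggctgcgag
The letters CCGCCC occurred in 0 of 10 testis ADAM promoters and 17 of 21 on the somatic side, against 35.9% of all 32544 promoters. TATAAA occurred in 3 of 10 and 1 of 21, against 13.6%. TGACG, the core shared by cAMP response elements, occurred in 0 of 10 and 4 of 21, against 20.9%, and the full element TGACGTCA, which contains it, in 0 and 0, against 1.8%. CACGTG occurred in 1 of 10 and 3 of 21, against 7.2%. The GC content was 35.3% to 51.0% in the 10 testis ADAM promoters and 52.3% to 80.0% in 20 of the somatic side that have a single start. Neither Adam20 nor Adam25 holds either run that is marked, while Adamts2 holds CCGCCC at 5 positions. A match is a run of letters, not a bound site.

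Of 15 genes that fold, trim or carry the sperm ADAMs, 2 fell and 0 rose, a count near the 8.22% of all genes tested that were called lower. Ace, whose testis form is needed for ADAM3 to reach its place on sperm, had 7581 to 10830 normalized counts in WT and 3883 to 4506 in KI (log2 fold change −1.14 ± 0.11; limma, adjusted p = 2.04e-06). Pmis2, also needed for ADAM3 on sperm, had 590.1 to 871 and 310.1 to 529 (log2 fold change −0.70 ± 0.15; limma, adjusted p = 0.00357). The chaperone genes Clgn (calmegin, log2 fold change −0.20), Calr3 (calsperin, −0.55) and Pdilt (−0.31) were not called, although Calr3 passed the adjusted p (limma, 0.0314). Pdia3, a disulfide isomerase of the same compartment, had a log2 fold change of −0.19.

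On the somatic side Timp1, Timp4, a pair of MMPs, a pair of ADAMTS proteases and Adam23 were higher in KI. Timp1, which encodes a secreted inhibitor of most MMPs, had 4.18, 8.09, 1.21, 4.01 and 10.3 normalized counts in WT and 31, 23.5, 31.9, 25 and 30.4 in KI. Every KI library was above every WT library, but the WT counts are a few reads each and WT library 3 had a single read. The log2 fold change was 2.36 ± 0.39 (SE, n = 5 per genotype; limma, adjusted p = 0.000401), with 2.65 in libraries 1 to 3 and 1.92 in libraries 4 and 5. Timp4 had 8.37, 10.4, 7.25, 9.03 and 12.2 in WT and 36.3, 29.6, 35, 32.7 and 28.5 in KI. These ranges lay well apart, with a log2 fold change of 1.69 ± 0.22 (limma, adjusted p = 6.28e-05). Both genes overlap synapsin genes in the annotation, Timp1 (chrX:20870166-20874737) in Syn1 and Timp4 (chr6:115244446-115252205) in Syn2, and the counting is not stated to have used strand. Syn2 itself had a log2 fold change of −0.30 (limma, adjusted p = 0.374). Overlaps are also annotated for other members, among them Adam1a (Tmem116 and Gm42878), Adam1b (Tmem116), Adam2 (Gm10233), Adam4 (Cox16 and Gm20498) and Timp3 (Syn3).

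Timp2, which inhibits MMPs and also helps to activate pro-MMP2, had 1553, 1849, 1864, 1540 and 2187 normalized counts in WT and 2541, 2428, 2645, 1777 and 2607 in KI. The ranges overlapped because KI library 4 stood below the rest, and the log2 fold change of 0.41 ± 0.13 passed the adjusted p (limma, 0.0276) without reaching 1.5-fold. Timp2 (chr11:118301061-118355411) overlaps Cep295nl on the same strand, and Cep295nl went the other way, from 4898 to 7772 in WT to 3073 to 4103 in KI (log2 fold change −0.89 ± 0.13; limma, adjusted p = 0.000128). Timp3, the TIMP that binds to the matrix, had 182 to 280.5 and 182 to 367, a log2 fold change of 0.13 (limma, adjusted p = 0.655).

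Of the 8 MMPs, 2 were called higher (6.13% of all genes tested) and all 8 estimates were above 0. Mmp2 (chr8:92827297-92853421), gelatinase A, had 11.5, 11.6, 13.3, 22.1 and 11.3 normalized counts in WT and 27.4, 33, 36, 23.1 and 31.3 in KI. WT library 4 stood above the other WT libraries and just under the lowest KI library, and the log2 fold change was 1.09 ± 0.24 (limma, adjusted p = 0.00418). Mmp25 (chr17:23629176-23645269), a membrane-anchored MMP first known from leukocytes, had 9.41, 1.16, 1.21, 11 and 9.41 in WT and 18.6, 17.4, 19.6, 23.1 and 18.4 in KI. A single read was found in WT libraries 2 and 3, all KI libraries were higher than all WT libraries, and the log2 fold change was 1.82 ± 0.49 (limma, adjusted p = 0.0137). Neither gene was called in libraries 4 and 5 alone, where the log2 fold changes were 0.73 and 0.95, nor was Timp4, at 1.45. Mmp14, which activates pro-MMP2 at the cell surface, had 185 to 297 in WT and 255 to 385 in KI (log2 fold change 0.32; limma, adjusted p = 0.147).

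Of the 11 ADAMTS genes, 2 were called higher (6.13% of all genes tested). Adamts5 (chr16:85858157-85901125), a protease of aggrecan and versican, had 88.9, 159.6, 117, 68.2 and 106 normalized counts in WT and 284, 292, 249, 177 and 266 in KI. The lowest KI library was above the highest WT library, with a log2 fold change of 1.26 ± 0.20 (limma, adjusted p = 0.000326). Adamts2 (chr11:50602085-50807573), which removes the N-terminal propeptide of fibrillar procollagens, had 39.8, 39.3, 30.2, 35.1 and 46.1 in WT and 88.5, 91.2, 63.8, 87.5 and 79.1 in KI. The groups did not overlap, and the log2 fold change was 1.09 ± 0.17 (limma, adjusted p = 0.000219). Adamts9 had 14 to 26.4 and 21.2 to 47.8, a log2 fold change of 0.69 that did not pass (limma, adjusted p = 0.0698) but passed with the replicate number as a block (adjusted p = 0.0259). The other 8 ADAMTS genes had log2 fold changes from −0.51 for Adamts6 to 0.90 for Adamts15 and were not called.

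The somatic or broadly expressed ADAMs had a median log2 fold change of 0.13, and 1 of 10 was called higher, near the 6.13% of all genes tested. That gene was Adam23 (chr1:63445891-63596101), which lacks the zinc-binding site and is best known as a neuronal receptor for LGI proteins. It had 41.8, 48.6, 30.2, 20.1 and 47.1 normalized counts in WT and 80.5, 71.3, 90.6, 64.4 and 126 in KI. The groups did not overlap, and the log2 fold change was 1.21 ± 0.25 (limma, adjusted p = 0.00235). The sheddases Adam10 (270.5 to 392 in WT, 308 to 528 in KI) and Adam17 (313 to 400 and 337 to 386) had log2 fold changes of 0.27 and 0.08 and overlapped between genotypes (limma, adjusted p = 0.189 and 0.616). Both estimates turned in sign in libraries 4 and 5 alone, to −0.02 and −0.01. Adam12 had 12 to 28.2 and 25 to 58.9, a log2 fold change of 0.76 that did not pass (limma, adjusted p = 0.0776) but passed with the replicate number as a block (adjusted p = 0.0139).

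**Figure D4:**
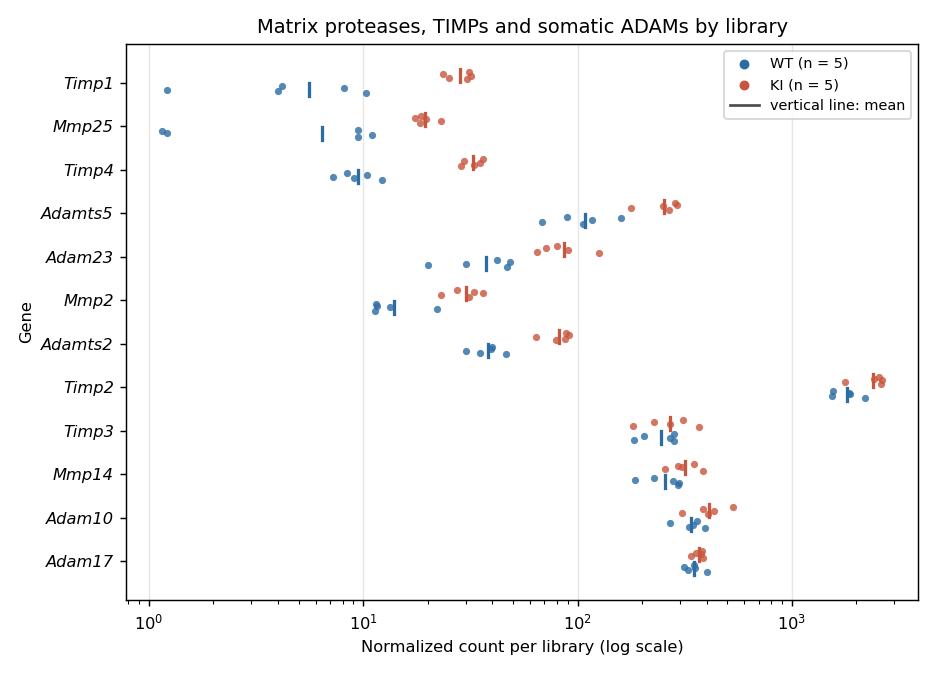
Normalized counts (x axis, log scale) of the 7 somatic members that rose and of Timp2, Timp3, Mmp14, Adam10 and Adam17 are plotted by gene (y axis), with 1 point per library, WT in blue and KI in red, and a vertical line at each mean. The KI points of the upper 7 genes lie to the right of all WT points, and those of the lower 5 overlap them.

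Over the 33 members of the somatic side, 8 were higher at an adjusted p under 0.05, against 9.65% of all genes tested, and in 8 every KI library was above every WT library, against 6.8%. Most of these genes are of low count, and for the 7 that rose the WT means ran from 5.57 for Timp1 to 108 for Adamts5. Both counts of 8 include Timp1, Timp4 and Mmp25, which passed the filter only through their KI libraries. Markers of somatic cells were counted in the same way, where 6.13% of all genes tested were called higher. Stromal fibroblast markers were called higher for 4 of 5 genes (median log2 fold change 1.22), with sums of 416 to 774 normalized counts in WT and 1129 to 1661 in KI. Macrophage markers were called higher for 6 of 9 (median 0.69, sums of 788 to 1032 and 1190 to 1559) and Leydig cell markers for 4 of 7 (median 0.69, sums of 10880 to 19500 and 15730 to 27050). Endothelial markers were called higher for 2 of 6 (median 0.50, sums of 278 to 379 and 439 to 825), and myoid markers for 2 of 5 tested (median 0.44, sums over 6 genes of 291 to 435 and 367 to 487). Sertoli cell markers were called for 0 of 8 (median 0.19, sums of 2330 to 3736 and 2550 to 4144). Estimates below 0 were those of the fibroblast marker Mfap5 (−0.74), the myoid markers Myh11 (−0.30) and Tagln (−0.23) and the Sertoli marker Inhbb (−0.06). No marker of these lists was at 0 in all libraries, and the part of these cells in the higher counts of the somatic members was not tested.

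The partners, activators and substrates of the somatic proteases were counted against the 6.13% of all genes tested that were called higher and the 8.22% called lower. Of 8 partners of ADAM10 and ADAM17, 2 rose and 0 fell. Rhbdf1, which encodes iRhom1, a carrier of ADAM17 to the surface, had 11 to 26.6 normalized counts in WT and 28.3 to 52.4 in KI (log2 fold change 1.09 ± 0.26; limma, adjusted p = 0.00641). Tspan15, a tetraspanin partner of ADAM10, had 43.1 to 63.1 and 85.6 to 129.7 (log2 fold change 1.05 ± 0.17; limma, adjusted p = 0.000337). Of 14 activators and inhibitors, 2 rose, Plau (urokinase, log2 fold change 1.06) and Adamtsl2 (0.95), and 1 fell, Pcsk6 (−0.78), which encodes a proprotein convertase. Of 8 substrates, 2 rose, Dcn (decorin, 0.91) and Eln (elastin, 1.08), and 0 fell. With the replicate number as a block, Pcsk5 was also called higher (adjusted p = 0.0491) and Hapln1 lower (adjusted p = 0.0111).

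The members named above were compared between the sets of libraries. Adam39, Adam25 and Adam20 had log2 fold changes of −2.73, −2.08 and −1.51 in libraries 1 to 3 and −3.14, −2.46 and −1.70 in libraries 4 and 5. Adamts2 had 1.13 and 1.03, and Adam23 1.01 and 1.52. The differences between the sets were not tested.

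**Figure D5:**
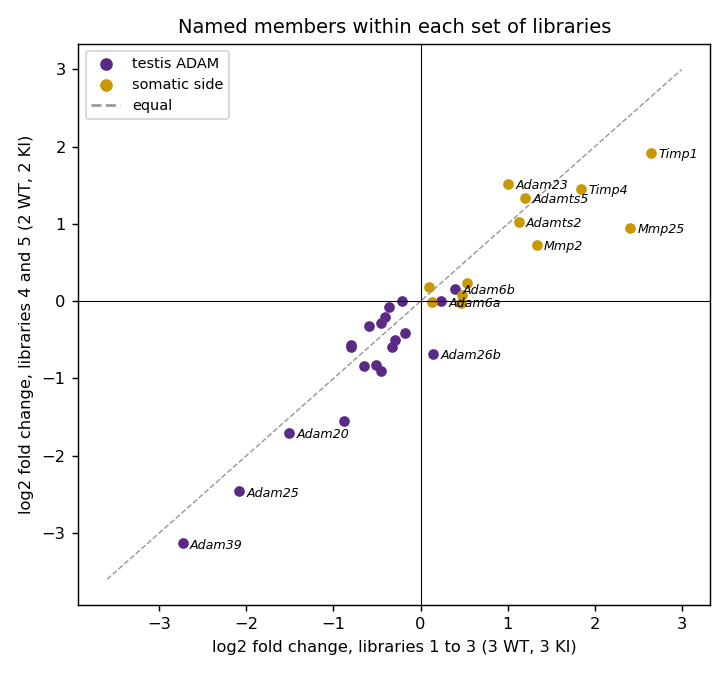
The log2 fold change (KI against WT) of each named member in libraries 1 to 3 (x axis, 3 per genotype) is plotted against that in libraries 4 and 5 (y axis, 2 per genotype), with testis ADAMs in purple, somatic members in yellow and a dashed line of equal values. Adam39, Adam25 and Adam20 lie at the lower left, Timp1 and Timp4 at the upper right, and Adam26b has opposite signs in the sets.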

How the data were processed

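Germ cells of 5 WT and 5 KI mice were sequenced as 1 library per mouse, and groups were taken from the genotype in the labels. The authors aligned with STAR against mm10, quantified RefSeq genes in Partek, divided the counts by DESeq2 size factors and deposited this normalized signal per gene and library. Strand use in counting is not given in the sources used here. Values were whole multiples of 1 read for 100% of values under 5000 reads (tolerance 0.1 reads), so that reads on genes could be recovered. Recovered reads gave the depth, which limits genes of a few reads.

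limma (3.58.1, R 4.3.3) with a variance trend was fitted to log2(value + 1) for 15389 genes that passed filterByExpr of edgeR (4.0.16), with Benjamini-Hochberg adjustment. Fold changes on this scale understate changes of low genes. Calls needed an adjusted p under 0.05 and a fold of 1.5. edgeR's quasi-likelihood test and DESeq2 (1.42.0) on recovered reads were alternatives, with other scalings, filters, pseudocounts (0.1 and 10), folds, a replicate block, each set of libraries alone and each library left out. The fits were also run on simulated data for this comparison, with 200 changed genes among those tested. No outcome of that run is given here, so it is no support for the calls, those of low genes included. For a single value, an exact permutation test (two-sided) ran over 252 arrangements.

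Libraries of the same number correlated after removing genotype means (r = 0.306, 0.105, 0.280, 0.216 and 0.462, above 0.1 in each pair), and the numbers come from the sample labels. Libraries of different numbers were not compared in this way. The values therefore cannot tell a pairing by number from the separation of the library sets. Zinc-binding sites were searched in translated GENCODE M21 coding transcripts, and promoters were taken from RefSeq (GRCm38.p6). Gene ends are the deposited ends less 1, since the deposited end was 1 above that of RefSeq for 62.8% of 15304 genes. The rule named every called member, the fertilin and ADAM3 group, Adam10, Adam17, Mmp2, Mmp14 and the TIMPs, and from each pathway list the called genes and up to 4 others in list order. Adam26b, Adam12, Adamts9, Pcsk5, Hapln1, the ends of ranges and Cep295nl and Syn2, which overlap members, were named after their values were seen. Members and gene lists were chosen with earlier results of these data known.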

Additional observations from a re-analysis of the deposited data

Results flagged for a closer look

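Among 64 groups of 5 libraries tested for a library far from the others (32 named members in each genotype), 5 stood out, where chance gives about 1 in 20 groups, or 3.2. That number takes the groups as independent, but they share the same libraries. All 5 were in a library numbered 4, of either genotype. Adam1a in KI library 4 was at 3505 normalized counts, with the nearest KI library at 2984. Adam3 in KI library 4 was at 15050, with the nearest at 12880. Timp2 in KI library 4 was at 1777, below the nearest at 2428. Adam2 in WT library 4 was at 13150, with the nearest WT library at 10540. Mmp2 in WT library 4 was at 22.1, with the nearest at 13.3.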

How the results depend on the processing

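Scaling by library totals gave 4 testis ADAMs called lower (main 9) with a median log2 fold change of −0.23, and 17 somatic members called higher (main 7) with a median of 0.66. It also moved the share of all calls that were higher from 42.7% to 73.1%, and upper quartile scaling to 55.8% (median of all genes 0.12). With library totals, 789 of 15389 genes tested were called lower and 2145 higher, against 1265 and 944 in the main test. A fold of at least 2 left 4 testis ADAMs, where 602 of all 15389 genes tested were called lower. A mean of at least 50 normalized counts left 3 somatic members called higher (median 0.20), since fewer low genes were tested. Of the 12334 genes then tested, 549 were called higher. Libraries 4 and 5 alone left 4 (median 0.26) and libraries 1 to 3 alone gave 9 (median 0.49), while the testis ADAMs called lower were 9 and 8. Over all genes tested, 471 were called higher and 1093 lower in libraries 4 and 5. In libraries 1 to 3 these numbers were 1108 and 1348. Leaving out 1 library, each in turn, gave 7 to 9 testis ADAMs called lower and 7 to 9 somatic members called higher, with medians of −0.50 to −0.41 and 0.35 to 0.51. The sign turned for Adam32 (0.10 with library totals, 0.0091 in libraries 4 and 5), Adam26b (0.0452 with library totals, 0.15 in libraries 1 to 3, and −0.29 to 0.0107 over the libraries left out, above 0 without KI replicate 5), and, in libraries 4 and 5, Adam6a (−0.0022), Adam10 (−0.0235) and Adam17 (−0.0063). The cause was not tested. With the replicate block 9 testis ADAMs were called lower and 9 somatic members higher, the added pair being Adam12 and Adamts9, and no other member changed its call, although Adam2, Adam4 and Adam6b then passed the adjusted p without the fold. Leydig markers called higher went from 4 to 6. Over all genes tested, the block raised the calls to 1343 lower and 1067 higher, from 1265 and 944. Of 764 pairs of a named member and an alternative, 726 kept direction and side of the threshold.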
